A study of Mus musculus with 7 samples.

Results

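The interferon regulatory factor genes *Irf1*, *Irf2*, *Irf3*, *Irf4*, *Irf5*, *Irf7*, *Irf8* and *Irf9*, with *Irf2bp2*, which encodes a cofactor of IRF2, were followed in the chromatin accessibility data of airway macrophages (AMs). Every ATAC-seq peak that the authors' annotation assigned to 1 of these 9 gene symbols was taken, which gave 141 of the 90376 peaks of the table, and 9 of its 17798 genes. ATAC-seq uses a transposase that cuts and tags open DNA, so that the read count of a peak measures how accessible that stretch of chromatin was. The values below are read counts per peak scaled between libraries, and replicate numbers only name the columns of the table. AMs of *Scnn1b*-Tg mice (4 libraries) were compared with AMs of wild-type (WT) littermates (3 libraries). *Scnn1b*-Tg mice carry a transgene for a subunit of the epithelial sodium channel behind the club cell secretory protein promoter, which is active in airway epithelium, and they develop muco-obstructive lung disease. Mice of both genotypes were 6-week-old females on a C57BL/6 background. The AMs were sorted as CD45+ Siglec-F+ CD11c+ cells and used fresh, without culture or treatment, at 50000 cells per library.

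Interferon regulatory factors bind DNA through a shared domain that reads GAAA repeats. IRF3 and IRF7 wait in the cytoplasm until sensors of microbial nucleic acids or Toll-like receptors activate them, and then switch on interferon genes, and IRF5 acts beside them in the transcription of inflammatory cytokines. IRF9 is the DNA-binding part of the complex that carries the type I interferon signal to interferon-stimulated response elements (ISREs), while IRF1 is itself induced by interferon gamma through GAS elements and IRF2 competes with it for the same DNA. IRF4 and IRF8 are lineage factors that bind composite elements with PU.1 (EICE) or with AP-1 proteins, and IRF8 is needed for monocyte and macrophage development.

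Sequence is shown first for the start regions of these genes that hold such an element, because the measured peaks lie over them. In the 300 bases around each RefSeq start (250 upstream and 50 downstream, GRCm38, which is mm10), 4 letter patterns were searched on both strands: ISRE (GAAA, then any 2 bases, then GAAA), GAS (TTCNNNGAA), EICE (GGAA, then any 2 bases, then GAAA) and AP-1 (TGANTCA), where N is any base. ISRE and EICE can overlap. A match was found for *Irf1*, *Irf2* and *Irf8*, and these stretches are printed 5′ to 3′ on the plus strand with the matches in capitals. They span chr11:53769904-53769952 for *Irf1*, chr8:46739495-46739549 for *Irf2* and chr8:120736167-120736233 for *Irf8*.
Irf1: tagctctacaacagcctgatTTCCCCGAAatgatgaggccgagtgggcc
Irf2: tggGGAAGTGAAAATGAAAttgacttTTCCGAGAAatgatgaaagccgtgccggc
Irf8: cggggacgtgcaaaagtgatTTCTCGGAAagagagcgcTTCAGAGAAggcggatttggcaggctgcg
The *Irf1* stretch holds 1 GAS match, the *Irf8* stretch holds 2, and in the *Irf2* stretch an EICE and an ISRE match overlap ahead of a GAS match. Among 32841 RefSeq promoters of the same length, 3.44% held the ISRE letters, 8.3% GAS, 2.72% EICE and 7.81% AP-1. A match describes letters and is no measure of binding, and the windows of *Irf3*, *Irf4*, *Irf5*, *Irf7*, *Irf9* and *Irf2bp2* lacked these letters.

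Libraries held 20971521 to 56121809 reads in peaks in *Scnn1b*-Tg AMs and 28248016 to 39162909 in WT AMs, of which 38568 to 103384 and 53607 to 78312 lay in the 141 peaks. Start peaks of AM markers were open, 12 of 13 listed symbols having one (341 to 3144 normalized counts per kb), and their summed counts ran from 14482 to 18695 in *Scnn1b*-Tg and from 15060 to 18204 in WT libraries. The symbol without one, *Siglec5*, is another name of the listed *Siglecf*. Of other cell types, 3 of 3 monocyte markers had a start peak, with summed counts of 511.55 to 637.34 in *Scnn1b*-Tg and 534.39 to 678.31 in WT libraries. The same held for 3 of 4 neutrophil markers (1452.4 to 1929.4 and 1536.9 to 2068.2), 3 of 4 dendritic cell markers (1304.6 to 1513.5 and 1280.7 to 1358.8), 2 of 5 T and B cell markers (1930.7 to 2969.0 and 2021.1 to 2889.7) and 3 of 4 epithelial markers (1616.3 to 1952.2 and 1525.6 to 1863.5). Some of these starts were as open per kb as AM markers, with 974.3 normalized counts per kb at *S100a8*, 759.6 at *Cd3d*, 681.2 at *Ms4a1* and 609.5 at *Scgb1a1*, while the monocyte starts held 76.33 to 277.5. None of 3 eosinophil markers had one, and *Ly6g* of neutrophils and *Sftpc* of epithelium had none. These are bulk libraries, in which a different mix of cells and a different accessibility per cell cannot be told apart. By the median over start peaks, *Scnn1b*-Tg replicate 4 and WT replicate 3 were the highest libraries and replicate 1 of each genotype the lowest, as described further on. Single starts could differ, and at the *Irf7* start *Scnn1b*-Tg replicate 4 and WT replicate 3 were the lowest of their genotypes. Values without *Scnn1b*-Tg replicate 4 and WT replicate 3 are given where they changed a count. Replicate 1 of each genotype was left out singly and not as a pair.

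The first question was whether the starts of these genes differed in accessibility between genotypes. At none of the 9 starts did *Scnn1b*-Tg AMs separate from WT AMs by the test, which was limma on log2(count + 1) over all 90376 peaks with genotype as its only term. Adjusted p was 1 at each of the 9, and the fold changes ran from -0.10 at *Irf2* to 0.07 at *Irf9* on the log2 scale. Fold changes are *Scnn1b*-Tg minus WT throughout. The peaks meant here overlie the most 5′ RefSeq start and were chosen after the values were seen, since the peak nearest a start by the authors' annotation was another one for *Irf2*, *Irf5* and *Irf7*.

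**Figure D1:**
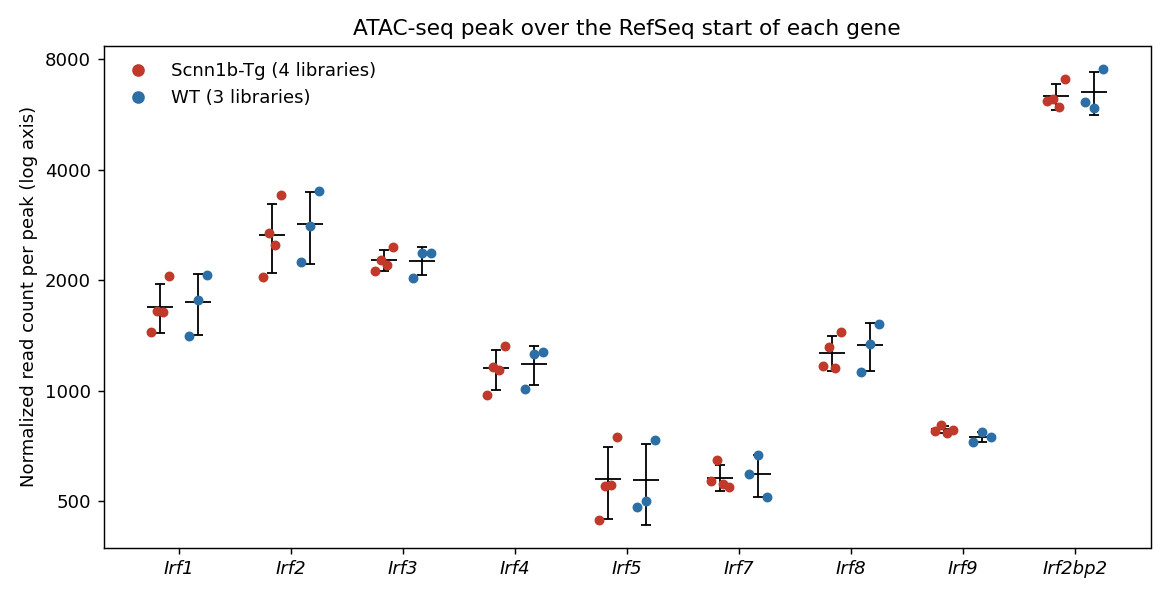
Normalized read count (log axis) of the peak over the RefSeq start of each of the 9 genes, 1 point per library in *Scnn1b*-Tg (red, 4 libraries) and WT (blue, 3 libraries) AMs, with bars for the mean and SD. The genotypes overlapped at all 9 genes, by least at *Irf9*, where the lowest *Scnn1b*-Tg value was 768.62 and the highest WT value 769.62.

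Among the factors that wait for activation, the *Irf3* start peak (chr7:44996950-44998900) held 2124.2, 2277.3, 2195.1 and 2465.6 normalized counts in *Scnn1b*-Tg libraries, against 2029.9, 2380.0 and 2370.5 in WT libraries. The genotypes overlapped, with a log2 fold change of 0.01 (SE 0.11, 95% interval -0.25 to 0.26). This peak also covers the start of *Bcl2l12* on the other strand, so it cannot be given to *Irf3* alone. The *Irf7* start peak (chr7:141265958-141266674) held 567.26, 648.21, 556.69 and 547.78 in *Scnn1b*-Tg libraries, against 591.88, 670.01 and 514.98 in WT libraries, a log2 fold change of -0.03 (SE 0.15). The WT values enclosed the *Scnn1b*-Tg ones. The *Irf5* start peak (chr6:29526374-29527194) held 445.53, 549.39, 551.95 and 749.20 in *Scnn1b*-Tg libraries, against 482.18, 500.43 and 736.49 in WT libraries, a log2 fold change of 0.00 (SE 0.21). Its 2 highest values belonged to *Scnn1b*-Tg replicate 4 and WT replicate 3. *Irf5* was the gene whose summed counts over all its peaks lay furthest below WT, at 3086.9 ± 204.45 in *Scnn1b*-Tg and 3276.7 ± 156.09 in WT AMs (SD, n = 4 and 3), a ratio of 0.942, and its peak of smallest p, 2.601 kb inside the gene (763.63 ± 74.45 in *Scnn1b*-Tg and 847.71 ± 46.711 in WT), had a log2 fold change of -0.15 (SE 0.14, limma adjusted p 1).

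At the genes that carry the interferon signal, *Irf9* was the one with least spread. Its single peak (chr14:55603600-55604648) held 775.42, 808.68, 768.62 and 784.21 in *Scnn1b*-Tg libraries, against 722.84, 769.62 and 746.77 in WT libraries. These are means of 784.23 ± 17.502 and 746.41 ± 23.39, and the values met at a margin of 1 count. The log2 fold change was 0.07 (SE 0.13, 95% interval -0.21 to 0.35). The window also holds an exon of *Rnf31*, the neighbouring gene. The *Irf1* start peak (chr11:53769406-53770838) held 1441.3, 1650.0, 1635.3 and 2057.9 in *Scnn1b*-Tg libraries, against 1411.7, 1768.1 and 2071.3 in WT libraries, a log2 fold change of -0.04 (SE 0.16, 95% interval -0.39 to 0.31). Both genotypes spanned almost the same range there. The 5 peaks of *Irf1* all had fold changes below 0, from -0.16 to -0.04, each smaller than its own standard error.

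The *Irf2* start fell outside the annotated peaks of the gene. The peak over it (chr8:46739183-46741800) was assigned to *Gm16675*, a non-coding RNA that starts in the opposite direction, and is therefore not among the 141. It held 2043.9, 2688.0, 2492.5 and 3407.6 in *Scnn1b*-Tg libraries, against 2240.8, 2809.3 and 3506.6 in WT libraries, a log2 fold change of -0.10 (SE 0.18, 95% interval -0.50 to 0.30). *Scnn1b*-Tg replicate 4 and WT replicate 3 were again the highest. Of the peaks with the symbol *Irf2*, the closest to this start lay 6.113 kb after it and had a log2 fold change of 0.14 (SE 0.18). The one nearest to any annotated transcript start (chr8:46792590-46793014) lay 53.06 kb after the RefSeq start, at -485 bp from an alternative transcript start. It held 387.23 ± 48.738 in *Scnn1b*-Tg and 389.5 ± 50.862 in WT AMs.

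Both lineage factors had open starts. The *Irf4* start peak (chr13:30748783-30750255) held 975.06, 1160.4, 1141.9 and 1322.8 in *Scnn1b*-Tg libraries, against 1013.7, 1257.0 and 1274.3 in WT libraries, a log2 fold change of -0.04 (SE 0.15). The *Irf8* start peak (chr8:120735716-120737631), which holds the pair of GAS matches printed above, had 1165.0, 1314.6, 1156.1 and 1447.4 in *Scnn1b*-Tg libraries, against 1126.8, 1341.2 and 1523.2 in WT libraries, a log2 fold change of -0.06 (SE 0.15). At both starts the values of the genotypes were interleaved. The corepressor gene *Irf2bp2* had the highest counts of all, with 6144.9, 6218.3, 5913.3 and 7069.5 over its start (chr8:126593876-126596681) in *Scnn1b*-Tg libraries, against 6121.2, 5894.9 and 7538.5 in WT libraries, a log2 fold change of -0.04 (SE 0.11).

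Levels were compared between genes per kb of peak. *Irf2bp2* led with 2258 ± 180 normalized counts per kb in *Scnn1b*-Tg and 2323 ± 317 in WT AMs, at percentile 97.6 of the start peaks of 13630 genes. *Irf1* followed with 1184 ± 181 and 1221 ± 230, *Irf3* with 1161 ± 75.5 and 1158 ± 102, and *Irf2* with 1015 ± 217 and 1089 ± 242. *Irf7* (808.9 ± 64.4 and 826.1 ± 108), *Irf4* (780.7 ± 96.5 and 802.2 ± 98.9), *Irf9* (747.6 ± 16.7 and 711.5 ± 22.3), *Irf5* (699.2 ± 155 and 698.0 ± 173) and *Irf8* (663.2 ± 72.2 and 694.4 ± 104) came next, down to percentile 56.3 for *Irf8*. *Irf2bp2* lay above the 8 other genes in each of the 7 libraries, and below it each gene overlapped the next in this order. *Irf1* and *Irf3*, whose lowest libraries held 985.1 and 1040 counts per kb, lay above every library of *Irf7*, *Irf4*, *Irf9*, *Irf5* and *Irf8*, the highest of which was 934.5 at *Irf7*.

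The second question was whether any peak of these genes differed. None of the 141 passed as a differentially accessible region (DAR, adjusted p under 0.05 and absolute log2 fold change above 1), where 0.00111% of all peaks did, and the smallest adjusted p of a member peak in limma was 1. The study reported far more baseline DARs at these thresholds with DiffBind and edgeR than limma gave here. The cause of that gap was not tested. Count tests on the recovered whole reads (100% of values were whole to within 1e-06 reads) also gave 0 DARs among the 141 with edgeR's quasi-likelihood test, its likelihood-ratio test and DESeq2. At an unadjusted p under 0.05, limma gave 3 of the 141 peaks (2.13%, against 2.01% of all peaks), 0 higher (1.49% of all peaks) and 3 lower (2.13%, against 0.517% of all peaks) in *Scnn1b*-Tg AMs, and the quasi-likelihood test, the likelihood-ratio test and DESeq2 gave 0 higher (1.45%, 1.66% and 1.42% of all peaks by these tests) and 3 lower as well (0.506%, 0.582% and 0.465% of all peaks). The libraries of the genotypes did not overlap at 1 peak that was higher (0.709%, against 1.92% of all peaks) and 2 that were lower in *Scnn1b*-Tg AMs (1.42%, against 1.31%). Over both directions the share was near that of the whole table, while the lower share, which rests on 3 peaks of *Irf4* and *Irf8*, was above it and the higher share below it. That contrast was smaller in some fits. In the fit without *Scnn1b*-Tg replicate 4 and WT replicate 3, the higher share was no longer below that of all peaks. With 1 surrogate variable 3 peaks were higher (2.13%, against 3.15% of all peaks) and 3 lower (2.13%, against 1.79%), and without *Scnn1b*-Tg replicate 4 and WT replicate 3, 3 were higher (2.13%, against 2.02%) and 2 lower (1.42%, against 0.95%). Without WT replicate 3 alone, 2 were higher (1.42%, against 2.25%) and 4 lower (2.84%, against 1.11%).

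**Figure D2:**
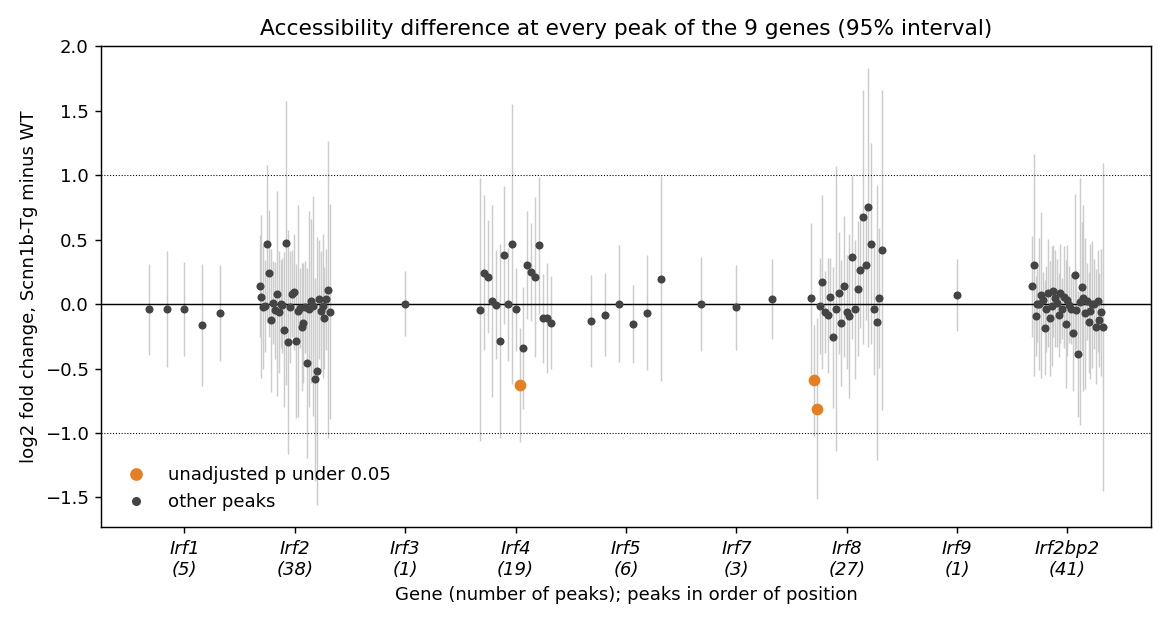
Log2 fold change (*Scnn1b*-Tg minus WT) with its 95% interval for each of the 141 peaks, grouped by gene and ordered by position, with peaks of unadjusted p under 0.05 in orange and dotted lines at 1 and -1. The 3 orange peaks lie at -0.62 for *Irf4* and at -0.59 and -0.81 for *Irf8*, and no point lies outside the dotted lines.

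Over the 141 peaks, 63 fold changes were above 0 and 78 below (44.7% above, against 47.8% of all peaks), with a median of -0.0147 (-0.00812 over all peaks). In 117 of the 141 (83.0%, against 84.8% of all peaks) the difference between genotypes was smaller than the SD within genotypes. An absolute log2 fold change above 0.5 occurred at 7 peaks (4.96%, against 6.42%), and above 1 at 0 (0.637% of all peaks). The 95% interval lay wholly within 1 log2 unit on either side of 0 at 120 peaks (85.1%, against 79.3%), so that larger differences lie outside the interval for these peaks and not for the other 21. The member peaks were deeper than most, with a median of 204.9 normalized counts against 120.6, and 131 of the 141 had a mean of at least 20.

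The 3 lower peaks lay at the lineage factors. The first is at the 3′ end of *Irf4* (chr13:30764003-30764797, annotated as 3′ UTR), 15.17 kb after the start. It held 174.07, 151.40, 110.71 and 134.49 in *Scnn1b*-Tg libraries, against 250.02, 213.45 and 192.97 in WT libraries, a log2 fold change of -0.62 (SE 0.20, 95% interval -1.07 to -0.18, unadjusted limma p 0.0097423, adjusted p 1). The highest *Scnn1b*-Tg library was below the lowest WT library. The unadjusted p was under 0.05 in 18 of 18 alternative analyses (0.000927 to 0.0484, adjusted p 0.251 to 1). A weaker peak next to it, at 17.65 kb and also in the 3′ UTR, held 62.08, 74.34, 64.84 and 54.04 in *Scnn1b*-Tg libraries, against 94.40, 74.71 and 74.22 in WT libraries, with a log2 fold change of -0.34. There *Scnn1b*-Tg replicate 2 lay above WT replicate 3, and the unadjusted p was 0.14.

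Both other lower peaks lie upstream of *Irf8*. Stretches of them are printed because their unadjusted limma p was under 0.05, and they hold matches to the patterns named above. Other named peaks that hold matches are not printed. The whole peak was searched, for which no share over all peaks was taken. In the central 300 bases, 0 of the 27 *Irf8* peaks held the ISRE letters and 4 held GAS. The neighbouring peak at -26.9 kb, which overlapped between genotypes, also held matches, to EICE and AP-1. The peak at -25.0 kb (chr8:120711107-120711599) holds an ISRE match on the minus strand 213 bp from its centre, so that it reads TTTCATTTTC on the plus strand. The peak at -20.97 kb (chr8:120715220-120715558) holds a GAS and an AP-1 match near its centre, and a further AP-1 match nearer its edge that is not printed. The stretches are chr8:120711541-120711590 and chr8:120715419-120715516 on the plus strand, with matches in capitals.
Irf8 upstream peak with ISRE: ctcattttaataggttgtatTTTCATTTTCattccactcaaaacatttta
Irf8 upstream peak with GAS and AP-1: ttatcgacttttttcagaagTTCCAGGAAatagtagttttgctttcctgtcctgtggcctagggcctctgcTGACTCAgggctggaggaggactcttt
The ISRE-bearing peak held 71.82, 77.06, 69.59 and 80.45 in *Scnn1b*-Tg libraries, against 118.21, 125.70 and 97.06 in WT libraries, a log2 fold change of -0.59 (SE 0.20, 95% interval -1.02 to -0.16, unadjusted limma p 0.011218, adjusted p 1). The 4 *Scnn1b*-Tg values lay close together and below the 3 WT values. Its unadjusted p was under 0.05 in 17 of 18 alternatives and 0.0525 without WT replicate 2. The GAS-bearing peak held 43.82, 21.76, 25.30 and 22.72 in *Scnn1b*-Tg libraries, against 65.48, 39.13 and 44.53 in WT libraries, a log2 fold change of -0.81 (SE 0.32, 95% interval -1.51 to -0.11, unadjusted limma p 0.027521, adjusted p 1). *Scnn1b*-Tg replicate 1 overlapped the WT values. Its unadjusted p stayed under 0.05 in 13 of 18 alternatives. It was 0.136 without WT replicate 1, 0.0688, 0.0532 and 0.0573 without *Scnn1b*-Tg replicates 2, 3 and 4, and 0.058 without *Scnn1b*-Tg replicate 4 and WT replicate 3.

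**Figure D3:**
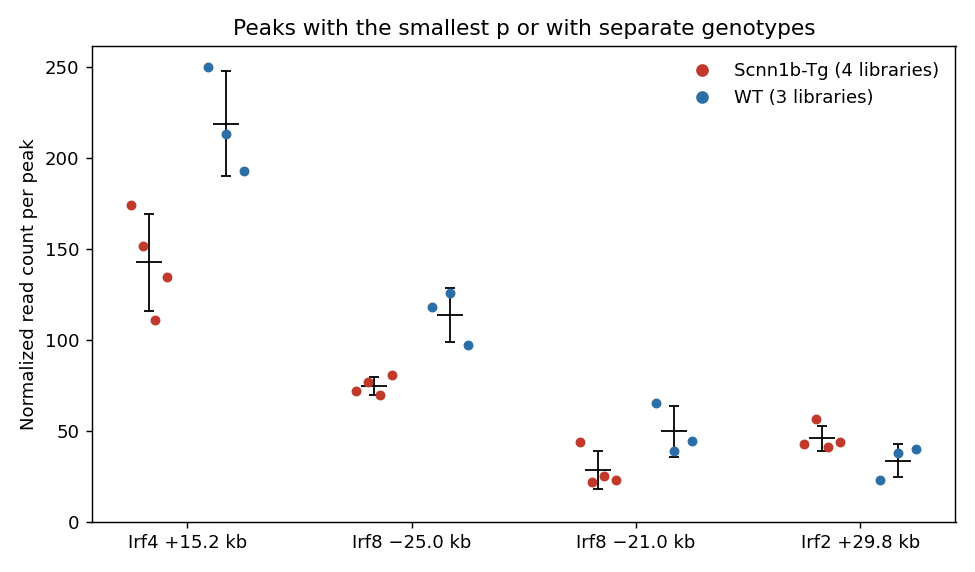
Normalized read count per peak in *Scnn1b*-Tg (red) and WT (blue) AMs, 1 point per library with mean and SD, for the peaks of *Irf4*, *Irf8* and *Irf2* with an unadjusted p under 0.05 or with genotypes that did not overlap, each named by its distance from the gene's start. The genotypes were apart at the first, second and last peak, and at the third the *Scnn1b*-Tg value of 43.82 lay among the WT values.

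The peak at which *Scnn1b*-Tg AMs lay wholly above WT AMs was in an *Irf2* intron, 29.84 kb after the start (chr8:46769426-46769741). It held 42.61, 56.21, 41.12 and 43.60 in *Scnn1b*-Tg libraries, against 22.96, 37.95 and 39.97 in WT libraries. The gap between the closest libraries was small beside the spread within WT, and the log2 fold change was 0.47 (SE 0.28, unadjusted limma p 0.12201, adjusted p 1).

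The peaks of a gene differed in direction. *Irf8* had 27 peaks over 180.6 kb, of which 14 had fold changes above 0 and 13 below. Only 4 of them lie inside the gene, and the word intron in their annotation comes from *Gm20388*, a predicted transcript that spans the whole region. Their summed counts were 5109.7 ± 123.57 in *Scnn1b*-Tg and 5105.3 ± 76.19 in WT AMs (SD, n = 4 and 3). The 2 lower peaks upstream sat beside a stronger peak at -26.9 kb that held 573.35, 434.26, 469.71 and 288.63 in *Scnn1b*-Tg libraries, against 617.39, 373.54 and 309.44 in WT libraries. That peak overlapped fully, with a log2 fold change of 0.05 (SE 0.27). The peaks of largest positive fold change, at 79.3 and 64.46 kb downstream (0.75 and 0.68, SE 0.50 and 0.45), were thin, with means of 23.181 ± 10.166 and 32.371 ± 8.8563 counts in *Scnn1b*-Tg and 14.785 ± 10.955 and 22.817 ± 16.383 in WT AMs.

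Enhancers of *Irf8* are known downstream of the gene in mouse haematopoietic cells, and 3 peaks at such distances were read after the values had been seen. The peak at 56.65 kb was the strongest of them, with 172.86, 314.59, 287.84 and 290.47 in *Scnn1b*-Tg libraries, against 182.84, 282.23 and 263.77 in WT libraries (log2 fold change 0.12). The peak at 32.46 kb held 75.47, 73.43, 88.56 and 84.13 in *Scnn1b*-Tg libraries, against 78.24, 77.08 and 97.06 in WT libraries (log2 fold change -0.06). The peak at 40.95 kb held 30.43, 32.64, 39.54 and 23.95 in *Scnn1b*-Tg libraries, against 29.76, 28.46 and 43.39 in WT libraries (log2 fold change -0.09). The genotypes overlapped at all 3, and at 56.65 kb replicate 1 of each genotype was the lowest.

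**Figure D4:**
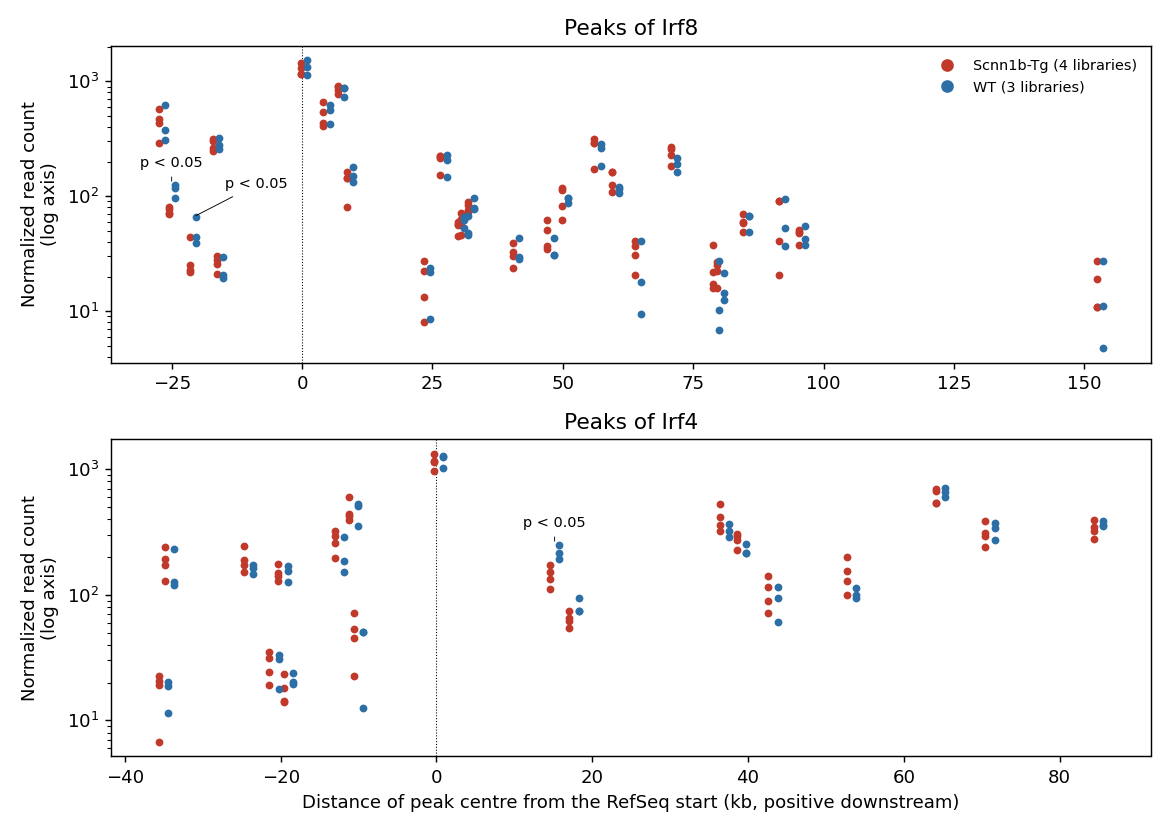
Normalized read count (log axis) of each peak of *Irf8* (above, 27 peaks) and *Irf4* (below, 19 peaks) against the distance of its centre from the RefSeq start in kb, 1 point per library, *Scnn1b*-Tg (red) just left of WT (blue). The marked peaks, at -25.0 and -20.97 kb of *Irf8* and 15.17 kb of *Irf4*, are those with an unadjusted p under 0.05.

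*Irf4* had 19 peaks over 121.0 kb, 10 with fold changes above 0 and 9 below, and 16 of them lie outside the gene. Their summed counts were 4903.4 ± 333.33 in *Scnn1b*-Tg and 4829.0 ± 157.54 in WT AMs. The strongest peak away from the start, 64.68 kb downstream at the 3′ end of *Exoc2*, held 535.61, 537.61, 695.87 and 675.51 in *Scnn1b*-Tg libraries, against 599.53, 661.71 and 709.09 in WT libraries, a log2 fold change of -0.11 (SE 0.16). A peak at 53.27 kb leaned the other way, with 129.03, 154.12, 200.85 and 98.87 in *Scnn1b*-Tg libraries, against 113.95, 99.61 and 94.77 in WT libraries (log2 fold change 0.46, SE 0.24, unadjusted limma p 0.084502). Here *Scnn1b*-Tg replicate 4 fell among the WT values. The 3 peaks that were higher without *Scnn1b*-Tg replicate 4 and WT replicate 3, a share near that of all peaks, were the *Irf4* peaks at 53.27 kb (0.57) and at -12.42 kb (0.58) and the *Irf8* peak at 64.46 kb (1.13). The limma adjusted p of each in that fit was 1.

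*Irf2* and *Irf2bp2* held 79 of the 141 peaks between them, most outside promoters. The 38 peaks of *Irf2* had fold changes from -0.58 to 0.47 and 24 below 0, but their sums differed little, 12903 ± 2104.2 in *Scnn1b*-Tg and 13096 ± 2413.9 in WT AMs. The strongest, 146.6 kb downstream, held 1709.1, 1368.0, 1244.7 and 1015.7 in *Scnn1b*-Tg libraries, against 1792.7, 1391.0 and 1008.3 in WT libraries. Replicate 1 of each genotype was the highest there, the reverse of the *Irf2* start. The 41 peaks of *Irf2bp2* had fold changes from -0.39 to 0.30, and 37 lay outside the gene. Its downstream peak at 28.12 kb was the second strongest of all 141, with 4087.7, 3874.8, 3836.8 and 3930.2 in *Scnn1b*-Tg libraries, against 4134.7, 3500.6 and 3944.0 in WT libraries, a log2 fold change of 0.03 (SE 0.10). Its peak of smallest p, at -49.7 kb, held 81.56, 80.69, 64.84 and 63.87 in *Scnn1b*-Tg libraries, against 108.85, 105.54 and 74.22 in WT libraries (log2 fold change -0.39, SE 0.22, unadjusted limma p 0.10896).

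What set libraries apart at these genes was shared by both genotypes. At the 11 member peaks over a transcription start, the median log2 difference from the peak's own mean was -0.0885, 0.0176, -0.0577 and 0.168 in *Scnn1b*-Tg replicates 1 to 4, and -0.154, 0.0549 and 0.139 in WT replicates 1 to 3. At the other 130 it was 0.113, 0.0226, -0.0575 and -0.112 in *Scnn1b*-Tg, and 0.0876, 0.0477 and -0.0854 in WT libraries. *Scnn1b*-Tg replicate 4 and WT replicate 3 were thus high at starts and low elsewhere, and replicate 1 of each genotype the opposite. The 14544 start peaks of the whole table showed the same split, from -0.222 in replicate 1 to 0.204 in replicate 4 of *Scnn1b*-Tg and from -0.209 in replicate 1 to 0.24 in replicate 3 of WT. The part of this split in any single difference above was not tested.

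**Figure D5:**
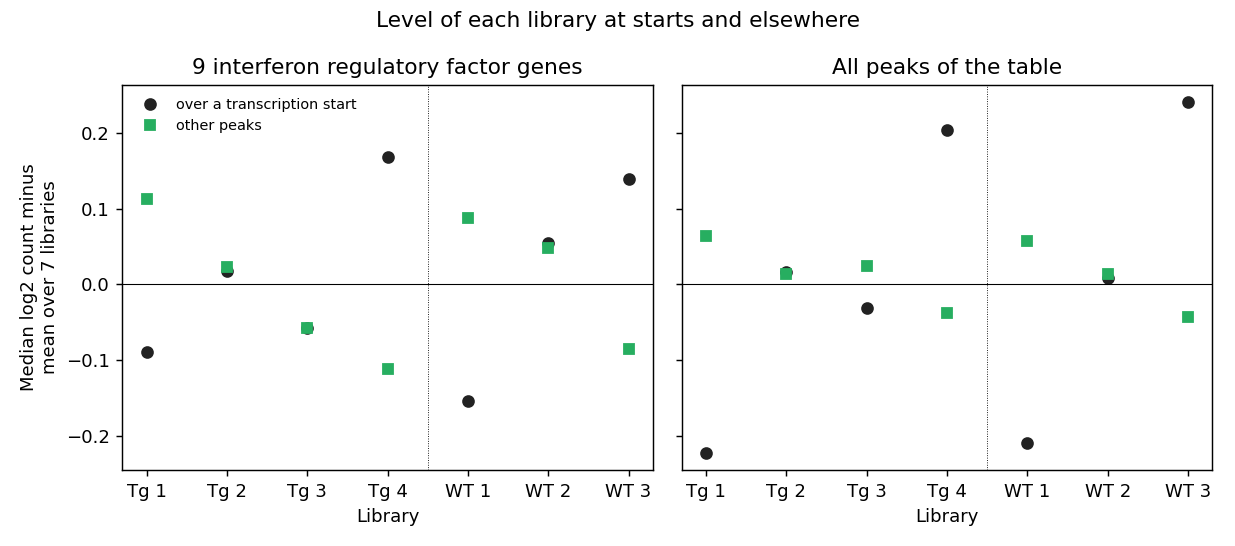
Median over peaks of the log2 count minus the peak's mean over 7 libraries, for each *Scnn1b*-Tg (Tg) and WT library, at peaks over a transcription start (black circles) and at other peaks (green squares), for the 9 genes (left) and the whole table (right). Circles are highest and squares lowest in Tg 4 and WT 3 of their genotype on both sides.

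The start peaks whose pattern over the 7 libraries was most like the mean of the 9 belonged to *Ubxn7*, *Arhgef40* and *Rpl21* (Pearson r 0.998 each, among 17021 genes). Start peaks here were those nearest a start by the authors' annotation, which for *Irf2*, *Irf5* and *Irf7* were not the peaks over the most 5′ RefSeq start. That likeness is common, since 28.1% of these genes had an r above 0.9 and the mean of all other start peaks had 0.961. The points share libraries and depth, so these are descriptions.

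The last question was how the rest of the pathway behaved, over 97 listed gene symbols of which 89 had peaks (623 in all). Some of the 97 symbols are alternative names of the same gene. By limma 0 of the 623 were DARs, whereas the study named loci of *Tank* and *Ifngr2* among those with increased accessibility in *Scnn1b*-Tg AMs. At an unadjusted p under 0.05, 8 were higher (1.28%, against 1.49% of all peaks) and 1 was lower (0.161%, against 0.517%) in *Scnn1b*-Tg AMs. Of these, 1 of 41 peaks at the interferon receptor genes (2.44%) was higher, at *Ifngr2*, a chain of the interferon gamma receptor. At sensors and adaptors 6 of 163 were higher (3.68%, against 1.49% of all peaks). The smallest p among them was at *Tank*, an adaptor of the kinases that activate IRF3. Among 154 peaks of DNA-binding partners 1 was higher and 1 was lower (0.649% each). The higher one was assigned to the AP-1 gene *Jun*, at -45445 bp from its start, and annotated as an exon. It held 219.33 ± 22.518 in *Scnn1b*-Tg and 152.93 ± 24.152 in WT AMs (log2 fold change 0.52). No peak passed among 35 at the kinases, 44 at the STATs, 55 at cofactors or 127 at interferon target genes. The smallest p at the kinases, the cofactors and the target genes were 0.13742 at *Jak2* (log2 fold change 0.24), 0.065355 at *Crebbp* (0.61) and 0.063341 at *Usp18* (0.79), all unadjusted limma values.

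Beyond the symbol that chose them, the 141 peaks were less often promoters than peaks at large (18.4% against 31.1%) and more often distal intergenic (39.7% against 26.8%). In the central 300 bases, 5 held the ISRE letters (3.55%, against 4.25% of all peaks), 17 GAS (12.1% against 9.68%), 9 EICE (6.38% against 4.44%) and 21 AP-1 (14.9% against 12.4%). These shares are descriptions, and peaks of a gene share their neighbourhood.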

How the data were processed

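The study prepared Omni-ATAC libraries from sorted AMs. Per its methods, the authors ran the ENCODE ATAC-seq pipeline on mm10, used DiffBind for a consensus of peaks seen in 2 or more samples and annotated it with ChIPseeker. The submitters' processing notes also name edgeR and DESeq2. The deposited signal columns hold read counts per peak that the authors scaled by 1 factor per library. The lowest value of each column was 1 read, and whole reads were recovered by division (100% of values, tolerance 1e-06). The authors' own columns of mean log2 signal, fold change, p-value and FDR were not used. The labels put 3 *Scnn1b*-Tg samples each in a batch with 1 WT sample and the other *Scnn1b*-Tg sample in a batch alone. The columns are not tied to these samples or batches, so no comparison within batches was made, and overlap of the genotypes is read without pairing. Labels do not state separate cultures or pooled animals per library, so p-values measure the spread between these libraries.

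Genotypes were compared with limma 3.58.1 (R 4.3.3, trended and robust variances) on log2(value + 1) over all 90376 peaks with Benjamini-Hochberg adjustment and no filter. This scale understates the change of low peaks. Named peaks were, per gene, the annotated start peak, the peak of smallest p and the highest peak not annotated as promoter, then peaks with an unadjusted p under 0.05 or without overlap. The members and lists were chosen with earlier results of these data known. Alternatives were pseudocounts of 0.5 and 5, a minimum mean of 20, quantile and median scaling, edgeR 4.0.16, DESeq2 1.42.0, limma without trend, each library left out, *Scnn1b*-Tg replicate 4 with WT replicate 3 left out, and 1 surrogate variable from sva 3.50.0. Peaks over RefSeq starts and *Irf8* peaks at enhancer distances were chosen after seeing the data. Promoters came from RefSeq (GRCm38.p6), and gene models from GENCODE M21, in which 21 of 21 member transcripts had the table's coordinates. The fit was tested on simulated data. At an adjusted p under 0.05 it missed most changes of 1.5-fold and 2-fold there, and found most of 3-fold. Some results of the pathway list are not reported here.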

Additional observations from a re-analysis of the deposited data

Results flagged for a closer look

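In 2 of the 22 sets of 4 *Scnn1b*-Tg values at named peaks, 1 library was far outside the range of the remaining 3. Chance flags about 1 in 20 such sets. At the *Irf2* intron peak (29.84 kb after the start), *Scnn1b*-Tg replicate 2 held 56.208 normalized counts, against 41.119 to 43.601 in the other *Scnn1b*-Tg libraries. At the *Irf8* peak at -20.97 kb, *Scnn1b*-Tg replicate 1 held 43.823, against 21.758 to 25.304 in the other *Scnn1b*-Tg libraries. Without that library the log2 fold change of this peak was -1.03 (unadjusted limma p 0.00635, adjusted p 1).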

How the results depend on the processing

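No paired analysis was possible because the columns carry neither the labels' numbers nor their batches, although the labels put 3 *Scnn1b*-Tg samples each in a batch with 1 WT sample. Under all 18 alternatives 0 of the 141 peaks were DARs. DARs among all 90376 peaks numbered 1 by limma, 0 by edgeR's quasi-likelihood test and by limma without trend, 54 by the likelihood-ratio test, 41 by DESeq2, 50 with 1 surrogate variable and 0 to 0 with single libraries left out. The study's own DiffBind analysis at the same thresholds reported more DARs than any of these fits. Member peaks that were higher at an unadjusted p under 0.05 numbered 3 with 1 surrogate variable (all of *Irf4*), 3 without *Scnn1b*-Tg replicate 4 and WT replicate 3, and 0 to 2 with single libraries left out (2 without WT replicate 3, 1 without WT replicate 2 and 1 without *Scnn1b*-Tg replicate 4), against 0 otherwise; the share of all peaks that were higher was 3.15%, 2.02%, 2.25%, 1.15% and 1.85% in these 5 fits, against 1.49% in the reported fit. Lower member peaks numbered 2 to 4 (1.42% to 2.84% of members). The lower share of all peaks ran from 0.302% without WT replicate 2 (members 1.42%) to 1.79% with 1 surrogate variable (members 2.13%). The median log2 fold change ran from -0.050506 to 0.024787 with single libraries left out and from -0.034038 to -0.0057099 otherwise. Of the 22 named peaks 10 kept their direction in every alternative and 12, none with an absolute log2 fold change above 0.0709, did not. The *Irf2* peak at chr8:46792590 had 0.0064191 with quantile scaling and 0.025444 without both libraries, the start peaks of *Irf3* and *Irf7* (chr7:141264717) had -0.0043981 and -0.0067464 with median scaling, and that of *Irf2bp2* had 0.019984 without both libraries. With single libraries left out, log2 fold changes ran from -0.18615 to 0.090266 at the *Irf1* start, -0.18903 to 0.04473 at *Irf1* 53783022, -0.084832 to 0.093114 at *Irf2* 46792590, -0.26801 to 0.14679 at *Irf2* 46885846, -0.070409 to 0.044312 at *Irf3*, -0.14643 to 0.036732 at the *Irf4* start, -0.075024 to 0.11553 at *Irf7* 141264717, -0.059692 to 0.11723 at *Irf7* 141268471, -0.16362 to 0.33348 at *Irf8* 120708929, -0.1758 to 0.0415 at the *Irf8* start, -0.038722 to 0.081323 at *Irf2bp2* 126565114 and -0.10366 to 0.073723 at the *Irf2bp2* start. The cause was not tested. With 4 and 3 libraries, the median standard error of a member peak's log2 fold change was 0.209, which limits what difference could be seen.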
